A study of Mus musculus with 52 samples.

Results

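The comparison described here is anti-CTLA4 antibody against isotype control antibody in young mice bearing 4T1 tumours. Its members were taken by the labelled age and treatment, which gave 12 anti-CTLA4 libraries and 7 isotype libraries, 19 of the 52 libraries in the series. 4T1 is a mammary carcinoma line from the BALB/c mouse strain, and here 100000 cells were placed in a mammary fat pad of Balb/C hosts. Young hosts were labelled 8 to 10 weeks old, and the aged hosts of the series over 12 months old. Every host received 3 doses of 200 µg of its antibody into the peritoneum, on days 7, 10 and 13 after the tumour cells. RNA came from whole tumours of no more than about 150 mm3, so the libraries hold tumour cells, host immune cells, vessels and fat together. The other treatment in young mice, anti-PD-L1, had 10 libraries, and the aged isotype, anti-CTLA4 and anti-PD-L1 groups had 7, 8 and 8.

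CTLA4 is an inhibitory receptor of T cells, most abundant on regulatory T cells, that competes with the stimulatory receptor CD28 for the ligands CD80 and CD86 on antigen-presenting cells. An antibody against it can release that brake, and in mouse tumours some anti-CTLA4 antibodies also remove regulatory T cells through Fc gamma receptors on macrophages. T cells that are released in this way make interferon gamma, which raises antigen presentation and T cell attracting chemokines in the cells around them.

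The labels put the young isotype libraries all in sequencing batch 2, while the anti-CTLA4 libraries fell in batches 1, 2 and 3 with 4, 3 and 5 libraries. The comparison therefore rests on 3 anti-CTLA4 libraries sequenced with the controls, and on batch differences estimated from groups that span batches. No aged library was in batch 2. Batch 2 is linked to the others only by the anti-CTLA4 group itself and by young anti-PD-L1. The latter had 9 libraries in batch 2 and 1 in batch 3. The n of 12 below therefore does not stand for 12 anti-CTLA4 libraries set directly against controls. Totals ran from 9549847 to 17625432 counts in isotype libraries and from 14090467 to 53778370 in anti-CTLA4 libraries. The epithelial identity of the tumours was present in both groups: the mean log2 CPM, counts scaled to the library total, of 12 epithelial genes was 4.70 to 6.01 in isotype and 4.17 to 5.77 in anti-CTLA4 libraries. The labels call the libraries biological replicates, and no 2 libraries of a group were copies of each other. Counts below of anti-CTLA4 libraries beyond the isotype median or range pool all 3 batches, unless batch 2 is named. The share of all genes was counted only where all 12 libraries, or the 3 of batch 2, cleared the range.

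Few genes passed, which does not show that few changed. On data simulated for this comparison, 53 of 100 genes with a 2-fold change and 90 of 100 with a 4-fold change were recovered. Of 17899 genes tested, 13 passed an adjusted p under 0.05 with edgeR's quasi-likelihood test (0.0726%). Of these, 12 were lower (0.067%) and 1 was higher (0.00559%) under anti-CTLA4. Among the lower ones were the coding genes Parvb, Zfp808, Sirt1 and Zfp644. The genes that passed also included a mitochondrial transfer RNA, a retrotransposed copy of a ribosomal protein gene, a copy of Lsm5 and 5 further noncoding or unclassified models. An unadjusted p under 0.05 was reached by 1247 genes (6.97%), 457 higher and 790 lower. The median log2 fold change of all genes was -0.04. DESeq2 passed 51 genes, which included all 13. In batch 2 alone no gene passed edgeR, with 484 at an unadjusted p under 0.05. Leaving out single libraries gave 2, 4, 5 and 25 passing genes without anti-CTLA4 replicates 3, 2, 1 and 6, 8 without each of replicates 4, 10, 11 and 12, and 5, 7, 7 and 8 without isotype replicates 3, 5, 7 and 6.

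Parvb, which encodes beta-parvin, an adaptor that links integrin-linked kinase to actin at cell adhesions, lies on chromosome 15 (GRCm38, 84232043 to 84315688, plus strand). Its level was 61.3, 67.6 and 190.0 CPM at the lowest, median and highest isotype library, and 18.8, 31.8 and 54.3 CPM under anti-CTLA4. Batch 2 gave 33.6, 33.6 and 36.6 CPM, and none of the 12 anti-CTLA4 libraries reached the lowest isotype library. Parvb fell by 1.32 ± 0.26 on the log2 scale (SE, n = 12 and 7, edgeR adjusted p = 0.0214), with -1.42 ± 0.38 within batch 2. It passed in 16 of 19 fits that left out a single library, but not without anti-CTLA4 replicates 1, 2 or 3, where the highest edgeR adjusted p was 0.107. Groups separated in this way, every anti-CTLA4 library below every isotype library, for 20 genes (0.112%).

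Parvb was the only gene to pass among 12 genes of the parvins and their kinase complex. Ilk, the kinase that beta-parvin binds, was at 0.12 ± 0.13 and Parva, the gene of alpha-parvin, at 0.07 ± 0.27. Lims2, an adaptor of the same complex, had 0.86 ± 0.40 (edgeR adjusted p = 0.665).

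The promoter window of Parvb is shown because its fall separated all libraries, and that of Sirt1 for contrast. Each runs from 250 bases before to 50 after the RefSeq start (GRCm38.p6), at chr15:84231793-84232092 on the plus strand for Parvb and chr10:63338986-63339285 on the minus strand for Sirt1. Capitals mark a GC box, spelled GGGCGG, searched on both strands together with the CCAAT box, which is searched under those letters, and the TATA box, spelled TATAAA.
Parvb promoter: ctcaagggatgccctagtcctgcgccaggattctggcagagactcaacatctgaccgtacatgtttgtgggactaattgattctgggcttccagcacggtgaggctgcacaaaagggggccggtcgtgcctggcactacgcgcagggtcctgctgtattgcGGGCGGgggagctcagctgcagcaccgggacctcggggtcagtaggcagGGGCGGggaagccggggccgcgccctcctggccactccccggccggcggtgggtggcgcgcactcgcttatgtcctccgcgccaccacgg
Sirt1 promoter: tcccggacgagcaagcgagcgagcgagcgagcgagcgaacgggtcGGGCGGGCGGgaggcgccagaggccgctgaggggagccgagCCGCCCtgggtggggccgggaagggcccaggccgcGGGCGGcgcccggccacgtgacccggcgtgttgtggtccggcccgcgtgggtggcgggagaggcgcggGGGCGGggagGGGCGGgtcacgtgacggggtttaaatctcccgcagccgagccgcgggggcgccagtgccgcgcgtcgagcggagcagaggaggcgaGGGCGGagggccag
Both hold the GC box, as do 35.7% of 32841 windows. Neither holds the CCAAT box or the TATA box in these letters, found in 37.4% and 13.6% of windows.

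**Figure D1:**
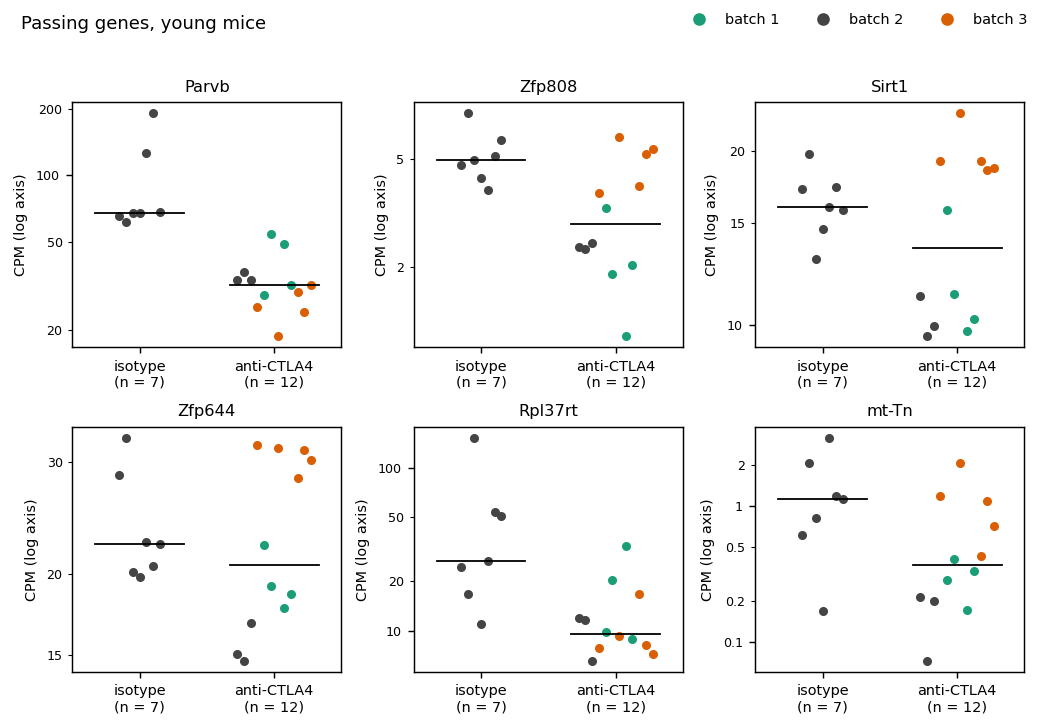
CPM of 6 passing genes in each young library, on log axes, with batches in colour and a line at each group's median. Parvb separates all 12 anti-CTLA4 libraries from the 7 isotype libraries, while Sirt1 and Zfp644 separate the batch 2 libraries but not those of batch 3.

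Sirt1, an NAD-dependent deacetylase of histones and transcription factors, was lower once batch was modelled. Its level was 13.0, 16 and 19.7 CPM at the lowest, median and highest isotype library, and 9.59, 13.6 and 23.2 CPM under anti-CTLA4. The 3 batch 2 libraries held 9.59, 9.98 and 11.2 CPM, all below the isotype range, as in 181 genes (1.01%), while the groups overlapped over all batches. Sirt1 fell by 0.65 ± 0.14 on the log2 scale (edgeR adjusted p = 0.0472). The value within batch 2 was -0.67 ± 0.19, and with no batch term it was -0.14 (edgeR adjusted p = 0.568). Sirt1 passed in 7 of the 19 fits that left out a library, with adjusted p up to 0.188. Of the 7 sirtuins only Sirt1 passed. Sirt4, a mitochondrial member, had -0.79 ± 0.28 (edgeR adjusted p = 0.454), and the other 5 lay near 0.

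Zinc finger genes gave the other coding members. Zfp808, a zinc finger gene on chromosome 13, was at 3.82, 4.94 and 7.32 CPM in isotype and 1.12, 2.87 and 6.01 CPM in anti-CTLA4 libraries. Its batch 2 libraries held 2.33, 2.36 and 2.44 CPM, below every control. It fell by 1.158 ± 0.23 (edgeR adjusted p = 0.0225), with -0.62 and an adjusted p of 0.0682 when batch was not a term. Zfp644 was at 19.8, 22.3 and 32.6 CPM in isotype and 14.7, 20.7 and 31.8 CPM in anti-CTLA4 libraries, and at 14.7, 15.0 and 16.8 in batch 2. The groups overlapped except in batch 2. Zfp644 fell by 0.64 ± 0.14 (edgeR adjusted p = 0.0497), but its value with no batch term was -0.04. With single libraries left out, Zfp808 passed in 15 and Zfp644 in 5 of the 19 fits. Over 336 numbered zinc finger genes, 222 had a negative and 114 a positive log2 fold change, with a median of -0.10, and only these 2 passed. The share with a positive value was 33.9%, beside 44.6% of all genes, whose median was -0.04 and of which 0.067% passed on the lower side.

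Short and duplicated transcripts were also lower, and their reads are hard to place. mt-Tn, the mitochondrial transfer RNA for asparagine, fell by 3.20 ± 0.58 on the log2 scale (edgeR adjusted p = 0.0123). Its levels were low, with 0.167, 1.11 and 3.12 CPM in isotype and 0.0727, 0.369 and 2.07 CPM in anti-CTLA4 libraries, and the groups overlapped. Its value without a batch term was -1.05 (edgeR adjusted p = 0.168), and it passed in all 19 fits that left out a single library. Rpl37rt, a processed copy of the ribosomal protein gene Rpl37 on chromosome 5, fell by 2.56 ± 0.49 (edgeR adjusted p = 0.0214). It was at 11.0, 26.9 and 151 CPM in isotype and 6.54, 9.58 and 32.9 CPM in anti-CTLA4 libraries, and 7 of 12 lay below every control. Rpl37 itself was at -0.53 ± 0.36 (edgeR adjusted p = 0.861).

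The sequences show why reads of the copy are uncertain: over 294 bases Rpl37rt differs from the coding sequence of Rpl37 at 1 base, 99.7% identity. The transfer RNA is printed with its anticodon in capitals, and the pair with the differing base in capitals, from the GENCODE vM21 transcripts.
mt-Tn: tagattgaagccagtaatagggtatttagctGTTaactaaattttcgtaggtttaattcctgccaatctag
Rpl37: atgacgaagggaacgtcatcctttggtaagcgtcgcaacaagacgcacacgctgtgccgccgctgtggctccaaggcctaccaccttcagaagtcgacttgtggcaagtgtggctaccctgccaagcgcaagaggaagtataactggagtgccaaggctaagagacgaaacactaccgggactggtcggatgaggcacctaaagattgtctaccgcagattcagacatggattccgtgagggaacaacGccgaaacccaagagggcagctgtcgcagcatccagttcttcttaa
Rpl37rt: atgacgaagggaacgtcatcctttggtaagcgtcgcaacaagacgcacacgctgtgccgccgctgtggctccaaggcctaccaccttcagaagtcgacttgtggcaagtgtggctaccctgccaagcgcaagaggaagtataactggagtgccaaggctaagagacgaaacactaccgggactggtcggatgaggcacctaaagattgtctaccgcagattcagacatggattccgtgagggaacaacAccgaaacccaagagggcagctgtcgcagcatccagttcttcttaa
A read that does not cross that base could come from either gene.

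Gm10074, a processed pseudogene 99.2% identical over 249 bases to Lsm5, a gene of the RNA-binding LSM ring, fell by 1.94 ± 0.42 (edgeR adjusted p = 0.0472). Its value without a batch term was -0.66 (edgeR adjusted p = 0.288), and Lsm5 was at -1.02 ± 0.41 (edgeR adjusted p = 0.532). Gm37144, which lies inside Mrpl15 without sharing its exons, fell by 2.34 ± 0.47, with 10 of 12 anti-CTLA4 libraries below every control. Gm10561, antisense to Rftn2, fell by 1.92 ± 0.42, with 11 of 12 below. Gm42636 fell by 1.41 ± 0.29 and Gm43176 by 2.74 ± 0.59, and both are unclassified models. Their edgeR adjusted p were 0.0225, 0.0497, 0.0243 and 0.0472 in the order named. Gm43176 had -1.37 with no batch term (edgeR adjusted p = 0.0799).

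The single gene that passed on the higher side was Gm16759, a noncoding transcript on chromosome 9. It overlaps exons of Iqch and 2300009A05Rik on the other strand. It had 140 reads in 11 of 12 anti-CTLA4 libraries and 1 read in 1 of 7 isotype libraries. The ratio of read rates, pooled over batches with no batch term, was 40.1, with a 95% counting interval of 7.09 to 1597. The edgeR adjusted p was 0.0214, and 0.13 without the 4 libraries of TMM normalization factor under 0.8. No gene passed on the higher side without anti-CTLA4 replicate 2 or 3, or without isotype replicate 3 or 5. All 10 anti-PD-L1 libraries and all 23 aged libraries, aged isotype included, had reads of Gm16759. It did not enter the fit of batch 2 alone, because its counts were below the filter.

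**Figure D2:**
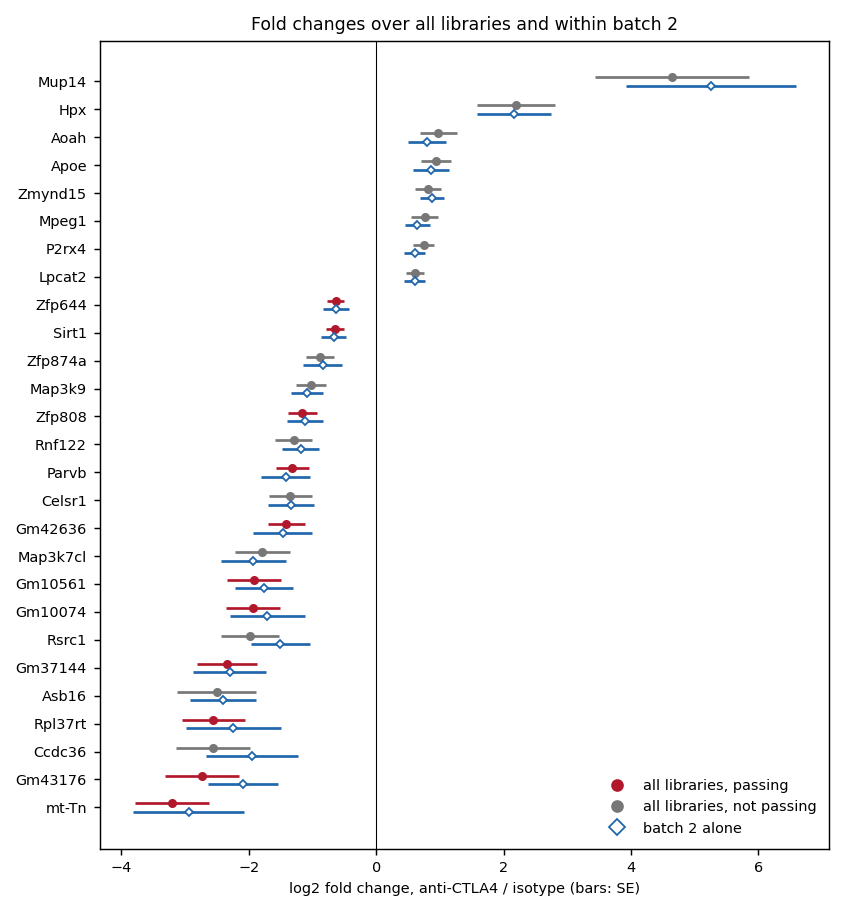
Log2 fold changes of anti-CTLA4 over isotype with SE bars, for the passing genes described except Gm16759 and the 16 genes of smallest p that did not pass. These 16 were taken among genes with a mean of at least 1 CPM, without predicted models. Filled points use all 52 libraries with a batch term and open diamonds the 10 anti-CTLA4 and isotype libraries of batch 2. Each gene has the same sign in both. The genes were picked in the fit that holds these 10 libraries, so the shared sign is no independent check.

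The 8 higher genes of smallest p that did not pass are given as values. P2rx4, an ATP-gated channel, was at 47.0, 50.2 and 67.2 CPM in isotype and 58.6, 83.0 and 101 CPM in anti-CTLA4 libraries, with a log2 fold change of 0.75 ± 0.17 (edgeR adjusted p = 0.0558). Over the 3 batches, all 12 anti-CTLA4 libraries lay above the isotype median and 9 above every control. Lpcat2, an enzyme of phospholipid remodelling, had 0.61 ± 0.14, Apoe, the lipid carrier made by macrophages, 0.94 ± 0.23, and Mpeg1, the pore-forming perforin-2 of phagocytes, 0.76 ± 0.21. Their edgeR adjusted p were 0.0687, 0.107 and 0.2. For Apoe, levels ran from 1531 to 3585 CPM in isotype and 2648 to 6045 CPM in anti-CTLA4 libraries. Over all batches, 10 of 12 exceeded every control, but batches 1 and 3 hold no young isotype library. Aoah, which inactivates bacterial lipopolysaccharide, had 0.98 ± 0.29 and Zmynd15 0.81 ± 0.21. Mup14 and Hpx, known as liver-secreted proteins, had 4.64 ± 1.21 and 2.19 ± 0.62, with Mup14 at 0 to 2.85 CPM in isotype and 0 to 68.1 CPM in anti-CTLA4 libraries.

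The 8 lower ones were Rnf122, a ubiquitin ligase, at -1.30 ± 0.29 (edgeR adjusted p = 0.0609), the kinase gene Map3k9 at -1.02 ± 0.24 and Map3k7cl at -1.79 ± 0.44. Map3k7cl was at 5.73 to 28.3 CPM in isotype and 1.06 to 4.98 CPM in anti-CTLA4 libraries, with no overlap, and did not pass (edgeR adjusted p = 0.107). Celsr1, a cadherin of planar cell polarity, had -1.35 ± 0.33, Rsrc1 -1.98 ± 0.46, Ccdc36 -2.56 ± 0.58, Asb16 -2.51 ± 0.61 and Zfp874a -0.89 ± 0.22. In the other direction, 3 genes lay wholly above the isotype range (0.0168%), and are named after their values were seen. These were Entpd1, which encodes the ATP-degrading enzyme CD39, Naip2, an inflammasome sensor, and Marcksl1. Entpd1 was at 29.5 to 43.1 CPM in isotype and 43.7 to 87.8 CPM in anti-CTLA4 libraries, with a log2 fold change of 0.53 ± 0.21 (edgeR adjusted p = 0.531).

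The target and its pathway did not pass. Ctla4 was at 2.73, 3.37 and 9.72 CPM in isotype and 3.53, 9.80 and 29.6 CPM in anti-CTLA4 libraries, and at 4.51, 7.27 and 7.27 in those of batch 2. All 12 lay above the isotype median, and 6 above every control. Its log2 fold change was 0.52 ± 0.54 (edgeR adjusted p = 0.927), and the antibody acts on the protein, so the transcript checks no label. Foxp3, the defining factor of regulatory T cells, had 0.66 ± 0.60, Il2ra, their high-affinity interleukin 2 receptor chain, 0.26 ± 0.43, and Icos, a costimulatory receptor, 0.62 ± 0.55. Foxp3 was at 0.691 to 5.66 CPM in isotype and 3.00 to 20.2 CPM in anti-CTLA4 libraries. Of 12 regulatory T cell genes, 10 had a positive log2 fold change and none passed, with a median of 0.32.

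T cell levels of the anti-CTLA4 libraries ran higher in batches 1 and 3 than in batch 2, with overlapping ranges. The mean log2 CPM of 15 T cell identity genes was 2.61, 2.97 and 5.15 at the lowest, median and highest isotype library, and 3.26, 4.52 and 6.49 under anti-CTLA4. The batch 2 anti-CTLA4 libraries stood at 3.26, 3.77 and 3.92, inside the isotype range, and those of batches 1 and 3 at 3.36, 4.72 and 6.49. Batches 1 and 3 hold no young isotype library, so batch and treatment cannot be told apart there. The median log2 fold change of the list was 0.12 with the batch term, -0.05 within batch 2 and 1.40 with no batch term. Cd8a, the coreceptor of killer T cells, was at 5.57, 11.7 and 46.1 CPM in isotype and 10.2, 40.4 and 110 CPM in anti-CTLA4 libraries, with -0.04 ± 0.78. Its value was 1.34 with no batch term, and turned to 0.01 with no filter on low counts and 0.18 with the length trend as a term. Cd4 had 0.17 ± 0.75 and turned to -0.05 within batch 2. In bulk tumour RNA, fewer cells of a type and less RNA per cell cannot be told apart.

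Genes of killing and interferon gamma did not pass either. Ifng was at 2.56, 3.54 and 4.81 CPM in isotype and 1.43, 7.85 and 19.5 CPM in anti-CTLA4 libraries, with 1.43, 5.02 and 7.63 in batch 2. Its log2 fold change was 0.48 ± 0.54. Gzmb and Prf1, the granule proteins that kill target cells, had 0.49 ± 0.49 and 0.66 ± 0.46. Of 21 interferon gamma target genes, 20 had a positive log2 fold change with a median of 0.44, and none passed. Over all genes, 44.6% had a positive value. The median of the list was 0.32 within batch 2. There its mean log2 CPM was 5.71, 6.49 and 7.09 in anti-CTLA4 replicates 1, 2 and 3. The isotype libraries ran from 5.71 to 6.58, so only replicate 3 lay above them. Cxcl9, a chemokine that draws T cells, had 0.70 ± 0.44 and held 205, 418 and 432 CPM in batch 2 against 124 to 278 in the controls. Cd274, the gene of PD-L1, had 0.54 ± 0.35 and Pdcd1, the gene of its receptor PD-1, 0.71 ± 0.48.

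**Figure D3:**
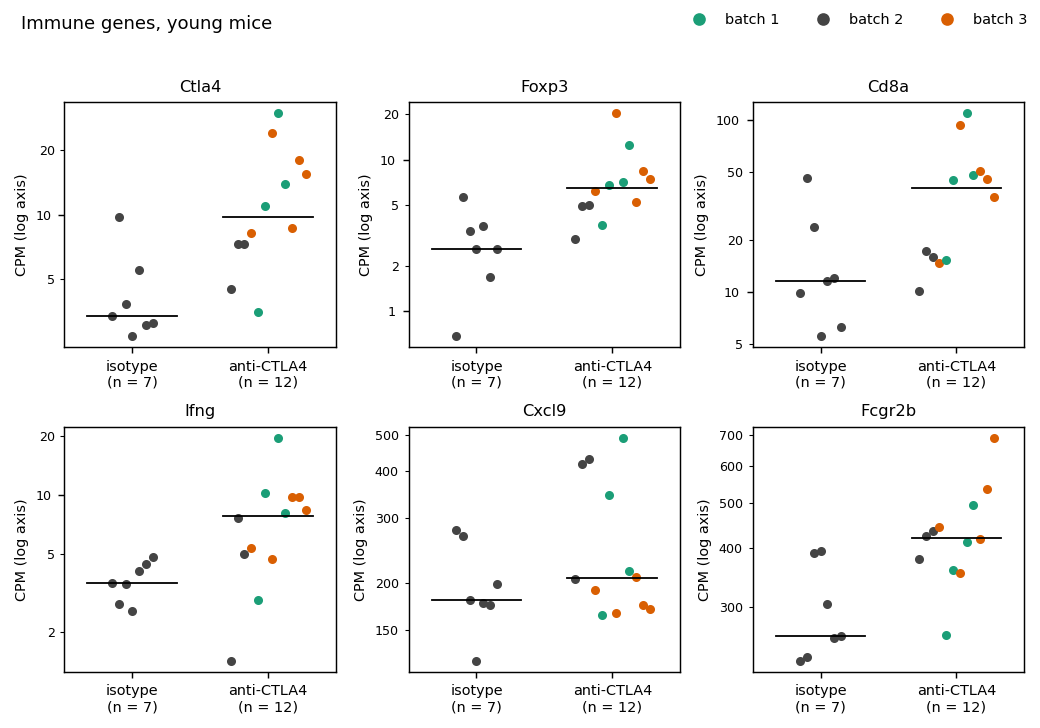
CPM of 6 immune genes in each young library, on log axes, with batches in colour and a line at each group's median. For Ctla4, Foxp3 and Cd8a the high anti-CTLA4 libraries are from batches 1 and 3, and none of the 6 genes passed.

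No gene of the Fc gamma receptor, macrophage, macrophage lipid, monocyte or neutrophil lists passed. All 11 genes of Fc gamma receptors and their signalling had a positive log2 fold change, with a median of 0.40, and 0.29 within batch 2. Fcgr2b, the inhibitory Fc gamma receptor, was at 229.7, 260.0 and 395 CPM in isotype and 261, 422 and 689.9 CPM in anti-CTLA4 libraries. Its log2 fold change was 0.59 ± 0.21 (edgeR adjusted p = 0.46). The activating receptors Fcgr1, Fcgr3 and Fcgr4 had 0.46 ± 0.26, 0.42 ± 0.28 and 0.57 ± 0.32. Of 20 macrophage genes, 18 were positive with a median of 0.41, and 6 had an unadjusted p under 0.05, against 2.55% of all genes on the higher side. Adgre1, the macrophage marker F4/80, had 0.59 ± 0.22. Of 15 genes of macrophage lipid handling, 14 were positive, and the lysosomal genes Lipa and Ctsd had 0.43 ± 0.16 and 0.50 ± 0.21. Of 20 neutrophil genes 16 were positive with a median of 0.33, but 11 within batch 2 with a median of 0.16. The neutrophil markers S100a8 and S100a9 had -0.97 ± 0.82 and -0.88 ± 0.83, and Csf3r and Cxcr2 0.65 ± 0.38 and 0.28 ± 0.57. Within batch 2 these markers had -1.25, -1.18, 0.27 and -0.19. Of 11 monocyte genes 7 were positive with a median of 0.077, and 6 within batch 2 with a median of 0.037.

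Antigen presentation by MHC class II had the second-highest list median with the batch term, 0.65, with 0.60 within batch 2, and 9 of 10 genes positive. The mean log2 CPM of the list was 8.09, 8.63 and 8.84 in batch 2 anti-CTLA4 libraries, against 7.65 to 8.36 in isotype libraries. H2-Ab1, a class II chain, was at 778, 981 and 1447 CPM in isotype and 1027, 1728 and 3073 CPM in anti-CTLA4 libraries. Over all batches, 10 of 12 anti-CTLA4 libraries held more H2-Ab1 than every control. The log2 fold change of H2-Ab1 was 0.86 ± 0.36 and that of Cd74, the invariant chain, 0.85 ± 0.36, both with an edgeR adjusted p of 0.569. Ccl17, a chemokine of dendritic cells and macrophages, had 1.57 ± 0.49 (edgeR adjusted p = 0.316), with 4.96, 10.5 and 21.0 CPM in isotype and 8.20, 27.8 and 104 CPM in anti-CTLA4 libraries. By contrast MHC class I presentation had a median of 0.14.

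**Figure D4:**
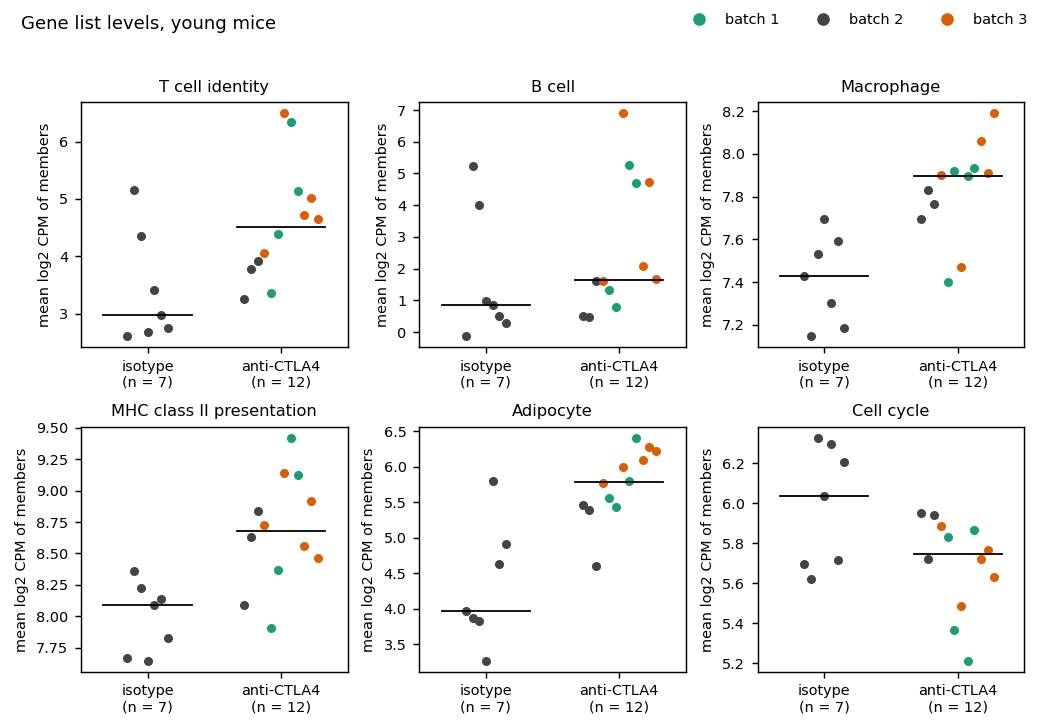
Mean log2 CPM of the members of 6 gene lists in each young library, with batches in colour and a line at each group's median. Cell cycle genes lie below the isotype median of 6.04 in all 12 anti-CTLA4 libraries, and B cell genes overlap widely.

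Adipocyte genes had the highest list median with the batch term, 0.99, and all 14 were positive without any passing. Their mean log2 CPM was 3.27, 3.97 and 5.80 in isotype and 4.61, 5.79 and 6.40 in anti-CTLA4 libraries, all 12 above the isotype median. Cidec, a lipid droplet protein, had 1.19 ± 0.65 and Acsl1, which activates fatty acids, 0.92 ± 0.36. These are markers of the surrounding fat pad, and their part in the other differences was not tested.

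B cell genes had mostly negative values, and a few libraries held high levels. Ms4a1, the gene of CD20, was at 137 CPM in isotype replicate 2 and 42.6 in replicate 3, and at 0.259 to 2.12 in the other isotype libraries. Under anti-CTLA4 it ran from 0.715 to 372 CPM. Its log2 fold change was -3.30 ± 2.33, and -1.54 without isotype replicate 2. The list median was -1.84 with the batch term and 1.08 without it. The T cell genes Cd28 and Ctla4 were also highest in isotype replicate 2 among the controls, at 16.6 and 9.72 CPM, and its part in the T cell values was not tested. Without it Cd28 turned from -0.65 to 0.21 and Cd8a to 0.49.

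No gene of the cell cycle, ribosomal protein, respiratory chain or glycolysis lists passed, and the lists differed in sign. All 26 cell cycle genes had a negative log2 fold change, with a median of -0.20 and -0.12 within batch 2. Aurkb, a mitotic kinase, was at 32.0, 44.0 and 58.8 CPM in isotype and 25.9, 33.9 and 40.8 CPM in anti-CTLA4 libraries, with -0.29 ± 0.16. Of 90 cytosolic ribosomal protein genes 87 were negative, with a median of -0.55, but the median was -0.09 without the 4 libraries of low normalization factor. All 13 mitochondrially encoded genes were negative with a median of -0.48, and that median was 0.21 with no batch term. Of 83 nuclear genes of the respiratory chain 68 were negative, with a median of -0.20 that turned to 0.091 without the 4 libraries of low normalization factor. Hypoxia and glycolysis genes went the other way, 14 of 19 positive with a median of 0.13, and -0.016 within batch 2.

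**Figure D5:**
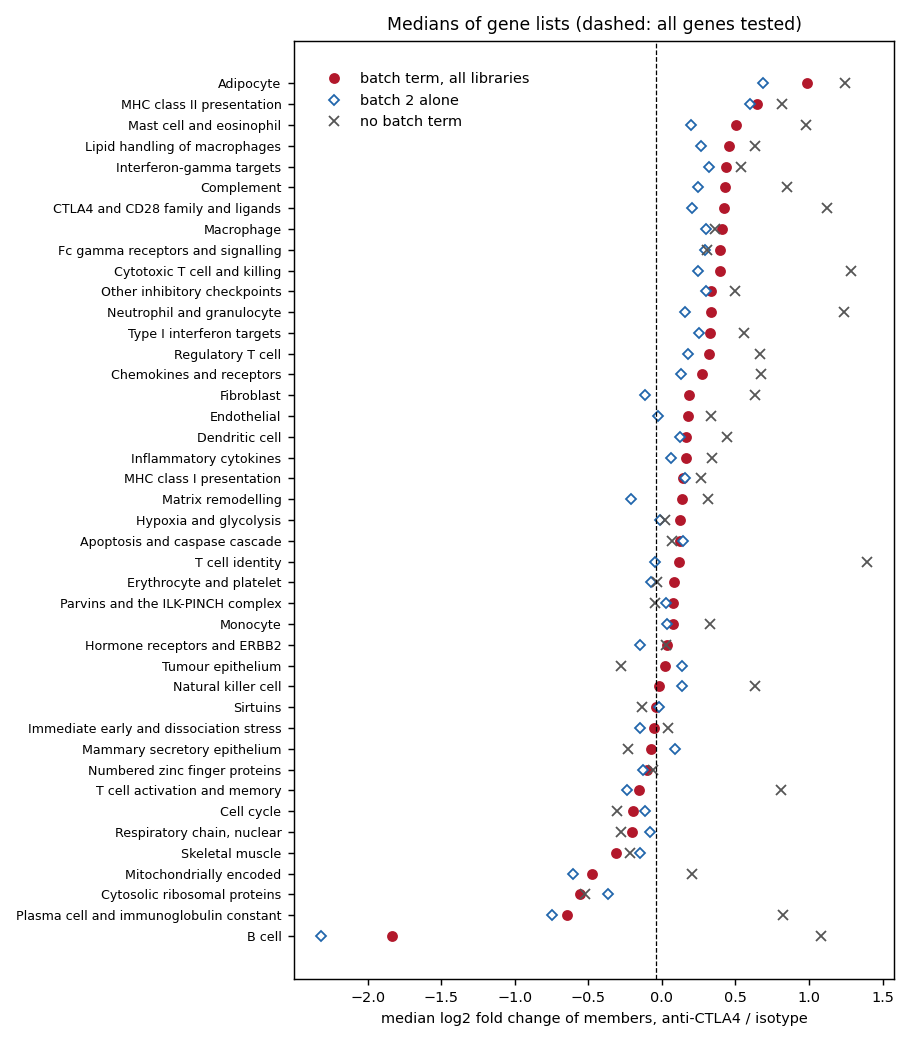
Median log2 fold change of the members of 42 gene lists under 3 settings, with a dashed line at the median of all genes. With the batch term and within batch 2, adipocyte and MHC class II genes are highest and B cell genes lowest, while with no batch term T cell identity genes are highest at 1.40.

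Set against anti-PD-L1 in young mice, no gene differed at the threshold by edgeR, with 1242 at an unadjusted p under 0.05, and DESeq2 passed 13. Anti-PD-L1 shares the isotype controls, so levels are given side by side. Parvb was at 22.5, 32.5 and 43.6 CPM in the 10 anti-PD-L1 libraries, all below the lowest isotype library. The share of all genes separated in this way was not counted, and Parvb was already picked against these same controls. The difference of anti-CTLA4 from anti-PD-L1 was 0.10 ± 0.22 for Parvb. Zmynd15 had 0.94 ± 0.18 (edgeR adjusted p = 0.0672) and H2-Ab1 1.03 ± 0.32.

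The difference of the anti-CTLA4 effect between aged and young mice passed for no gene by edgeR, with 1257 at an unadjusted p under 0.05, and for 18 by DESeq2. Parvb had a difference of 1.162 ± 0.32 (edgeR adjusted p = 0.474), with aged medians of 18.0 and 16.5 CPM. Both aged medians of Parvb lay below the young anti-CTLA4 median of 31.8 CPM. Within batch 1, Parvb was at 28.6 to 54.3 CPM in the 4 young and 12.3 to 22.7 CPM in the 7 aged anti-CTLA4 libraries. These ranges did not overlap, and the share of all genes separated in this way was not counted. In batch 3 the single aged anti-CTLA4 library was at 21.3 CPM, inside the young range of 18.8 to 31.8 CPM. Young and aged isotype libraries share no batch, so age and batch cannot be told apart between them.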

How the data were processed

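Whole-tumour RNA was measured by RNA-seq. The authors deposited 2 tables, estimated counts per gene, written as whole numbers, and TPM, and Salmon, DESeq2 1.16.1 and mm10 are named, with no role, per the submitters' processing notes. The deposited TPM values were read as a check of levels. Together with the counts, they also gave the gene lengths behind the length trend of each library. How reads were assigned by strand is not stated in the labels. Of 47729 gene identifiers, 505 had no name in GENCODE vM21 and 11075 were 0 in every library.

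Groups came from the labels for age and treatment and batch from the label for sequencing batch. Counts were fitted with edgeR 4.0.16 (R 4.3.3, limma 3.58.1) on all 52 libraries, with group and sequencing batch in the model, edgeR's default expression filter, TMM normalization and the quasi-likelihood test, and p was adjusted by Benjamini-Hochberg over 17899 genes. SE is the log2 fold change over the square root of F. CPM values are TMM-normalized. DESeq2 1.42.0 and other settings were alternatives. On data simulated for this comparison over 17698 genes, 53 of 100 genes changed 2-fold and 90 of 100 changed 4-fold were recovered, with 2 false calls among 17498 unchanged genes. The counting interval covers counting error only.

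Genes were named by a rule: those that passed, the 8 higher and 8 lower of smallest p that did not, up to 3 of smallest p per list and 20 set immune genes, 165 in all with 7 added. The 8 higher and 8 lower had a mean of at least 1 CPM over the young anti-CTLA4 and isotype libraries, and predicted models were left out. Of the 7 added, Rpl37, Lsm5, Mrpl15 and Rftn2 relate to genes of the rule. Entpd1, Naip2 and Marcksl1 were added because every anti-CTLA4 library lay above every isotype library. The text describes part of the 165 genes, and all 165 went through the alternatives. The members and the 42 lists were chosen with earlier results of these data known. Of the 13 passing genes, 1 is not reported here.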

Additional observations from a re-analysis of the deposited data

Results flagged for a closer look

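In 32 genes tested for an isotype library far from the other 6, 4 had one. The nominal rate is about 1 in 20, but the genes include ones that passed in these same libraries, so no excess is read from it. Rpl37rt was at 151 CPM in isotype replicate 3, with the next library at 53.1. Gm10074 was at 11.8 CPM in isotype replicate 6, with the next at 5.46, and Gm16759 at 0.0666 CPM in isotype replicate 2, with the other 6 at 0. For Gm16759 that value was 1 read. Ctla4 was at 9.72 CPM in isotype replicate 2, with the next at 5.54. Without isotype replicate 3, 5 genes passed the comparison of anti-CTLA4 with isotype.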

How the results depend on the processing

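The 13 passing genes became 51 with DESeq2, 7 with no filter on low counts, 1240 with no batch term (699 higher, 541 lower, 7 of the 13 shared), 6 without the 4 libraries of TMM factor under 0.8 (0 higher) and 20 with the length trend as a term (4 higher). They became 0 with only the 2 groups compared and 0 in batch 2 alone, where 571 and 484 genes had an unadjusted p under 0.05. Leaving out single libraries gave 2 (anti-CTLA4 replicate 3) to 25 (anti-CTLA4 replicate 6). Of 7 pairs of the same replicate number, 4 correlated above 0.1 (-0.36 to 0.36), and 1 library matched its own number best. So few pairs cannot settle whether replicate numbers pair the libraries, and the replicate block gave 2 genes. Relative log expression size factors gave 13, 12 of them shared. Against anti-PD-L1, DESeq2 gave 13 and no batch term 306, and for the age difference 18 and 10. The age difference in batches 1 and 3 was not run, as they hold no young isotype. Library length trend and TMM factor differed by 0.0867 and 0.0656 between the groups (exact permutation p = 0.271 and 0.327).

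Log2 fold changes of the 165 named genes that turned sign were as follows, and none of these genes passed; the cause was not tested. With no batch term: Cd28 1.51, Ikzf2 0.10, Tox 0.54, Tcf7 0.81, S100a8 0.95, Klre1 0.44, Ms4a1 0.92, Cr2 1.53, Pou2af1 0.96, Prdm1 0.041, Mzb1 0.41, Jchain 1.00, Cldn4 -0.24, Esr1 0.031, Erbb2 -0.23, Egln3 -0.20, mt-Nd3 0.16, mt-Atp8 0.43 and Cd8a 1.34. In batch 2 alone and with only the 2 groups: Erbb2 -0.031 and -0.032, Pf4 -0.067 and -0.070, Sirt2 -0.0081 and -0.0097, Cd4 -0.046 and -0.048. Without low TMM factors: Erbb2 -0.11, Ankrd37 0.053, Bnip3 0.29 and Cd4 -0.19. With the replicate block: Esr1 0.0059, Cd86 -0.12 and Cd4 -0.049. With the length trend Erbb2 was -0.12 and Cd8a 0.18, and with no filter Cd8a was 0.013. Leaving out single libraries gave Cd28 -0.84 to 0.21, Cd4 -0.028 to 0.66, Cd86 -0.048 to 0.25, Cd8a -0.19 to 0.49, Cxcl10 -0.10 to 0.28, Erbb2 -0.092 to 0.18, Esr1 -0.21 to 0.0079, Mx1 -0.067 to 0.67, Nos2 -0.26 to 2.09 and Wap -2.62 to 0.16. Low counts limit mt-Tn and Gm16759.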
